A study of Mus musculus with 9 samples.

Results

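Mt1, Mt2, Mtf1, Slc39a14 and Slc30a1 are the genes described here: both common metallothioneins, the metal-sensing factor that switches them on, a zinc importer and a zinc exporter. They were picked by symbol, as 5 of 24421 genes, and RNA sequencing measured them in 9 mouse libraries. All 5 were detected in every library, with 113 to 7027 counts per gene and library, and all 5 passed the filter on low counts. Kidney was represented by 1 library of tumour status and 1 of wild type status, both from mice given PBS, the vehicle. Muscle was represented by tumour status with MDC, tumour status with PBS, a beta-arrestin knockout label with DKK1, the same label with PBS, and wild type status with DKK1, in 1 library each, and by wild type status with PBS in 2 libraries. DKK1 is a secreted inhibitor of Wnt signalling that binds the LRP5 and LRP6 co-receptors, and beta-arrestins are adaptors that carry receptors into the cell. The title of the series names its subject as cachexia, the loss of muscle and fat seen with cancer. The labels do not name the tumour, the muscle, the strain, the age or sex of the mice, the dose or duration of any agent or the beta-arrestin gene, and they give MDC by its letters alone. Nothing states that libraries came from separate animals, so p values here measure only the spread between these libraries, which may be technical.

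Metallothioneins are small cysteine-rich proteins that bind zinc and copper in the cytosol and buffer their free level. When free zinc rises, the zinc-finger factor MTF1 binds short metal response elements in the promoters of metallothionein genes and of Slc30a1 and raises their transcription. Glucocorticoids and the interleukin-6 pathway through STAT3 also raise metallothionein transcription, and interleukin-6 raises that of Slc39a14, which encodes the importer ZIP14. ZIP14 brings zinc, iron and manganese into cells, and ZNT1, the product of Slc30a1, moves zinc out across the plasma membrane. In muscle wasting, metallothionein transcripts are among the genes known to be high in several atrophy models, and ZIP14 has been tied to zinc loading of muscle in mice with metastatic tumours. In the kidney the tubule handles zinc and takes up circulating metallothionein.

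The promoters are shown because the metal response element is the feature that joins the metallothioneins to Slc30a1. Windows of 300 bases, 250 before and 50 after the RefSeq start of the gene, were matched by symbol in RefSeq sequence of the mouse build GRCm38.p6 for 4 of the 5 genes, Mt1, Mt2, Mtf1 and Slc30a1. The core of the metal response element was searched on both strands as TGCACNC or TGCGCNC, which do not overlap each other in these windows. It matched 3 times in the Mt1 window, 4 times in the Mt2 window, 2 times in the Slc30a1 window and 0 times in the Mtf1 window. Among 32851 mouse windows of the same length, 25.7% held 1 or more matches and 1.97% held 3 or more. Capitals mark the matches in the 250 bases before the start and in the first 30 bases after it, all given on the plus strand, 5′ to 3′. The Mt1 lines run over chr8:94178839-94179088 and chr8:94179089-94179118, those of Mt2 over chr8:94172368-94172617 and chr8:94172618-94172647, and the Slc30a1 line over chr1:191906531-191906780.
Mt1, before the start: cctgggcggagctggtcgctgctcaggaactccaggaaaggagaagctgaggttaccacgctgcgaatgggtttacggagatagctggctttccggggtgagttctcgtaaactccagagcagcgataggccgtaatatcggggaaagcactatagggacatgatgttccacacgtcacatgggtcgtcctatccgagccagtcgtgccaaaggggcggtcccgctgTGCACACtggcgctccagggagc
Mt1, after the start: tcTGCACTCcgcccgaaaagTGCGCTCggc
Mt2, before the start: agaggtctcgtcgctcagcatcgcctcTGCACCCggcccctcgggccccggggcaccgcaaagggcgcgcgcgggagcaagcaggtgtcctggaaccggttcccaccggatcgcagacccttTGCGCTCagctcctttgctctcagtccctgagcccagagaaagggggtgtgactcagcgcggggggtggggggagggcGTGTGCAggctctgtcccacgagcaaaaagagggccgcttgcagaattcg
Mt2, after the start: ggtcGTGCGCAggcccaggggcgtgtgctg
Slc30a1, before the start: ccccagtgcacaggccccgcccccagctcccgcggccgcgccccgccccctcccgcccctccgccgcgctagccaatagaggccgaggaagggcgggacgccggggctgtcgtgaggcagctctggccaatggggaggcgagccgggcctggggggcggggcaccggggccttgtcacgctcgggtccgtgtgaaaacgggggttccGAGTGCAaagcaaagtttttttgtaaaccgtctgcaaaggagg
The second Slc30a1 match lies 31 to 37 bases after the start and is outside the printed line. The match nearest before the start lies at positions -23 to -17 in Mt1, -50 to -44 in Mt2 and -43 to -37 in Slc30a1, counted with the RefSeq start of the window as 1. The start in the GENCODE M21 annotation differs: it lies 7 bases before the RefSeq start in Mt1, 445 before it in Mtf1 and 14 before it in Slc30a1, and 46 bases after it in Mt2, so that the Mt2 line named after the start lies before the GENCODE start. Searched in the same way, a full glucocorticoid response element, AGAACA and TGTTCT with any 3 bases between them, and the STAT core TTCNNNGAA matched in none of the 4 windows. The antioxidant response element core TGACNNNGC matched 1 time each in Mt2 and Slc30a1, and 12.4% of all windows hold it. A match describes these letters and is not a measured site. Both starts are annotated ends, and where transcription starts was not measured here. Before and after therefore refer to the RefSeq start alone, and matches outside the windows were not counted.

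In the GENCODE M21 annotation of GRCm38, Mt2 lies on chromosome 8 at 94172664 to 94173568 and Mt1 at 94179082 to 94180327, both on the plus strand with 5513 bases between them. Mtf1 lies on chromosome 4 at 124802104 to 124849800 and Slc30a1 on chromosome 1 at 191906767 to 191913247, both on the plus strand, and Slc39a14 on chromosome 14 at 70303469 to 70351425 on the minus strand. Exons of 3 of these genes overlap exons on the other strand, over 432 bases for Mt2 with Gm45774, 721 bases for Mtf1 with 1110065P20Rik and 468 bases for Slc30a1 with 1700034H15Rik. The strand setting of the counting is not given in the sources used here, so reads of such partners cannot be told apart.

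Total counts per library were 42480786 to 44421797 in kidney and 21358854 to 32607835 in muscle. Levels are CPM, counts scaled to library size with TMM factors taken over the 9 libraries together. The library names carry a set letter: set A is kidney, set B holds the MDC and PBS libraries of tumour muscle with wild type PBS library 1, and set C holds the other muscle libraries, with wild type PBS library 2. MDC against PBS in tumour muscle, DKK1 against PBS under the knockout label and the label against wild type under DKK1 are compared within 1 set. Comparisons with the wild type PBS pair span sets B and C, so values against library 1 or 2 alone are given beside them. The 6 skeletal muscle markers summed to 74955 to 218085 CPM in muscle libraries, and the 6 kidney tubule markers to 7783 to 10748 CPM in kidney libraries. Arrb1 was at 30.7 and 22.3 CPM in the muscle libraries labelled knockout with DKK1 and with PBS, against 20.3 ± 2.39 CPM in wild type PBS muscle (SD, n = 2). Arrb2 was at 8.67 and 10.4 CPM in the same libraries labelled knockout, against 8.35 ± 0.242 CPM in wild type PBS muscle. In wild type DKK1 muscle Arrb1 was at 24.1 CPM and Arrb2 at 9.05 CPM. Neither gene was below its wild type PBS mean under the knockout label, and with DKK1 Arrb2 was at 8.67 CPM under the label, against 9.05 CPM in wild type muscle, so the label is used below as a label only. The ribosomal precursor Rn45s took 8.29% of the counts in wild type PBS library 2, against 0.359% to 2.51% in the other muscle libraries. In whole tissue, fewer cells of a type and less RNA per cell cannot be told apart.

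Because 7 of the 8 groups hold 1 library, each comparison is given with a rule of size beside its test. A gene passes it where it differs 2-fold or more and the higher library has at least 100 counts of it, and where wild type PBS muscle is the comparator the difference must hold against each of its 2 libraries. Log2 changes are differences of log2 CPM with a prior count of 2. The wild type pair itself differed: library 2 over library 1 was 2.48 for Mt1, 5.30 for Mt2, 2.84 for Slc39a14, 1.40 for Slc30a1 and 1.05 for Mtf1. On the log2 scale the pair's difference of Mt2 was larger than that of 95.2% of 11928 genes with 100 or more counts in a muscle library, and that of Mtf1 larger than that of 6.88%. The wild type pair thus lay far apart for Mt1, Mt2 and Slc39a14 and close together for Mtf1. A close pair of 2 libraries does not show a narrow error.

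**Figure D1:**
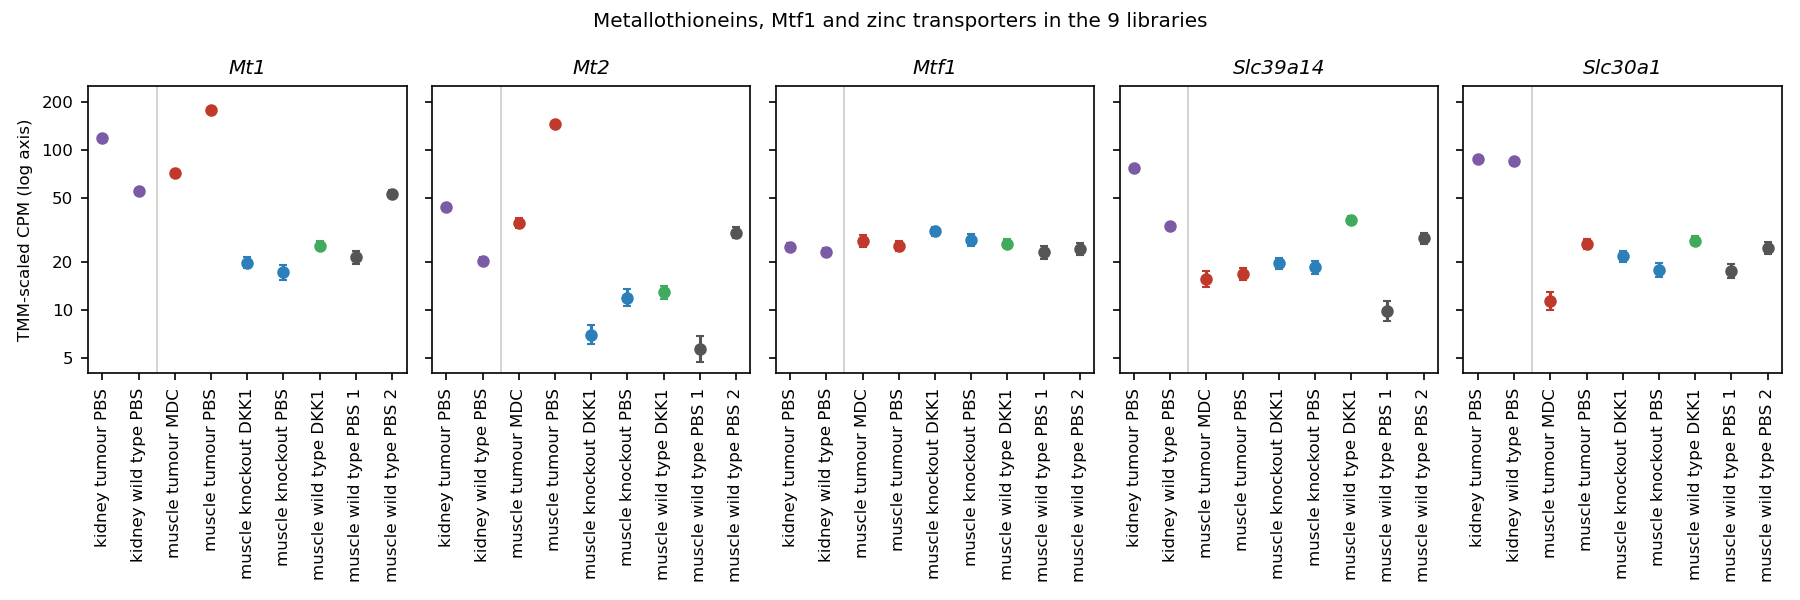
Level of the 5 genes in each of the 9 libraries, in TMM-scaled CPM on a log axis, with exact Poisson 95% intervals that cover counting error only. Mt1 and Mt2 stand highest in tumour PBS muscle, at 178 and 146 CPM, while Mtf1 stays between 22.9 and 30.8 CPM in all 9 libraries.

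Both metallothioneins were high in tumour PBS muscle. Mt1 was at 178 CPM in tumour PBS muscle, against 21.2 CPM in library 1 and 52.6 CPM in library 2 of wild type PBS muscle. Mt2 was at 146 CPM in tumour PBS muscle, against 5.70 and 30.2 CPM in wild type PBS libraries 1 and 2. The tumour library was above both wild type libraries, and above the other 6 muscle libraries, for each of these genes. Against library 1, of the same set, Mt1 was 8.39-fold and Mt2 25.5-fold higher; against library 2, Mt1 was 3.38-fold and Mt2 4.82-fold higher. The mean log2 change was 2.41 for Mt1 and 3.46 for Mt2, which put Mt2 above 99.7% and Mt1 above 99.5% of the 10981 genes with enough counts. By size, 2 of the 5 genes were higher and 0 lower, where 1.38% of all genes were higher and 0.419% lower. The edgeR quasi-likelihood test called neither gene, with an adjusted p of 1 for both and unadjusted p of 0.00314 for Mt1 and 0.00121 for Mt2. It called 0 of 15269 genes in this comparison, DESeq2 called 12, and 160 had an edgeR p under 0.05 before adjustment. Without the filter on low counts the adjusted p of Mt2 was 0.00109 and that of Mt1 0.125, and over all alternatives with a test the adjusted p of Mt2 lay between 0.00109 and 1.

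The other 3 genes did not follow the metallothioneins in tumour PBS muscle. Mtf1, the metal sensor, was at 24.9 CPM in tumour PBS muscle, against 22.9 and 24.0 CPM in wild type PBS libraries 1 and 2. Slc39a14, the importer, was at 16.6 CPM in tumour PBS muscle, against 9.84 and 27.9 CPM in the wild type PBS libraries, which lie on either side of it. Slc30a1, the exporter, was at 25.8 CPM in tumour PBS muscle, against 17.5 and 24.4 CPM in wild type PBS muscle. Their log2 changes were 0.09 for Mtf1, 0.00 for Slc39a14 and 0.32 for Slc30a1, all with an adjusted p of 1 in edgeR's test. For Slc39a14 the log2 change fitted by edgeR was -0.18, while the difference of mean log2 CPM was 0.00. With 1 tumour library the standard errors of the edgeR log2 change, 0.589 for Mtf1, 0.703 for Slc39a14 and 0.615 for Slc30a1, are wide enough that these values do not show equal levels.

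In tumour muscle with MDC, both metallothioneins and Slc30a1 were lower than in tumour muscle with PBS. Mt1 was at 71.0 CPM with MDC, against 178 CPM with PBS, a ratio of 0.399 (95% interval from counting error alone 0.377 to 0.423). Mt2 was at 34.9 CPM with MDC, against 146 CPM with PBS, a ratio of 0.239 (0.221 to 0.259). Slc30a1 was at 11.3 CPM with MDC, against 25.8 CPM with PBS, a ratio of 0.438 (0.377 to 0.507), and the MDC level was its lowest in any library. Mt2 was the most reduced of the 5, below all but 0.454% of the 11005 genes with enough counts. By size, 3 of the 5 genes were lower and 0 higher, where 3.52% of all genes were lower and 1.15% higher. Mtf1 was at 26.9 CPM with MDC, against 24.9 CPM with PBS, and Slc39a14 was at 15.6 CPM with MDC, against 16.6 CPM with PBS; their ratio intervals, 0.967 to 1.21 and 0.815 to 1.08, both include 1. With 1 library on each side, edgeR's test gave an adjusted p of 1 for all 5 genes, and its log2 change of Mt2 was -2.06 with a standard error of 0.931. edgeR and DESeq2 both called 0 of 15269 genes, and 33 had an edgeR p under 0.05 before adjustment.

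Set against wild type PBS muscle, the MDC library lay above both wild type libraries for the metallothioneins and below both for Slc30a1, in each case short of 2-fold from one of them. Mt1 was at 71.0 CPM with MDC, against 21.2 and 52.6 CPM in wild type PBS muscle, 3.35-fold and 1.35-fold higher. Mt2 was at 34.9 CPM with MDC, against 5.70 and 30.2 CPM in wild type PBS muscle, 6.12-fold and 1.15-fold higher. Slc30a1 was at 11.3 CPM with MDC, against 17.5 and 24.4 CPM in wild type PBS muscle, ratios of 0.648 and 0.464. None of the 5 genes passed by size, where 0.776% of all genes were higher and 0.736% lower, and the edgeR adjusted p was 1 for each. edgeR called 0 of 15269 genes here and DESeq2 11, and 211 had an edgeR p under 0.05 before adjustment. Without wild type library 2, which leaves the library of the same set, Mt1 and Mt2 passed as higher, and without wild type library 1 Slc30a1 passed as lower.

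**Figure D2:**
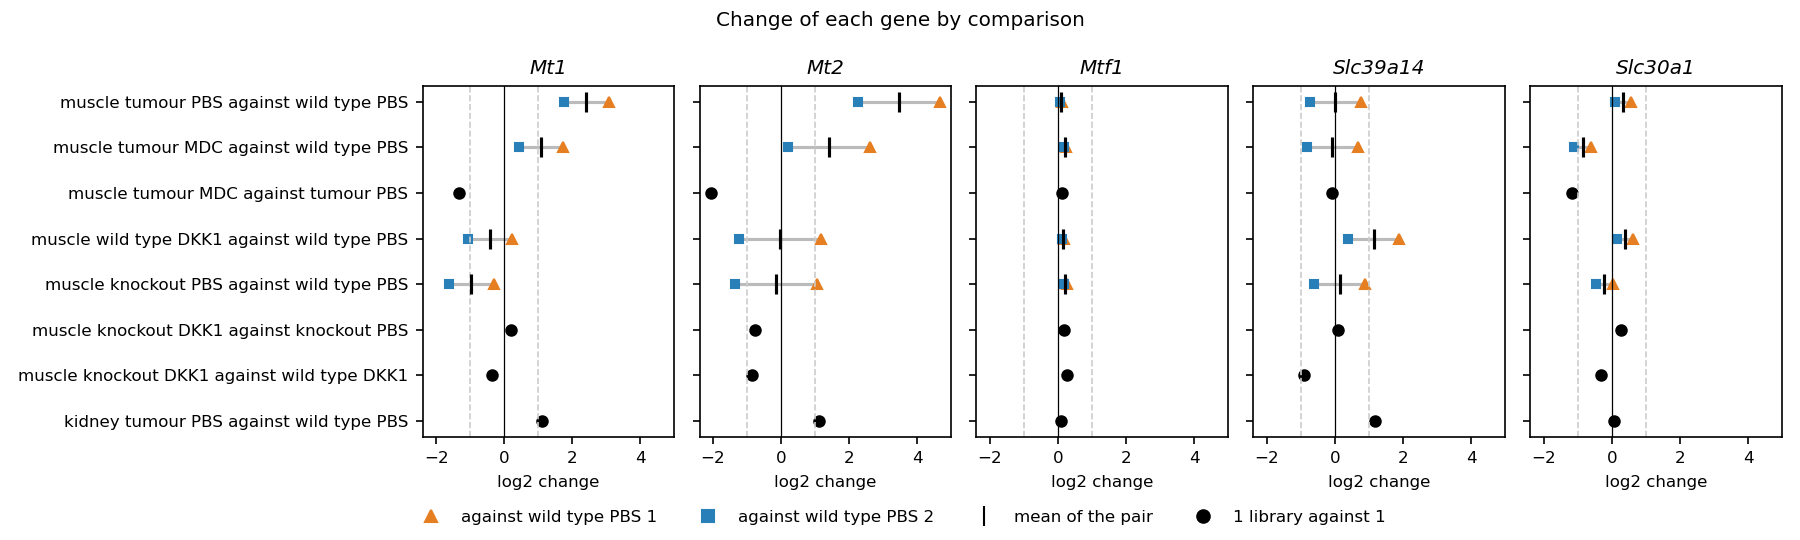
Log2 change of each of the 5 genes in each comparison, from TMM-scaled CPM with a prior count of 2. Points are values against single libraries, ticks the mean over the wild type pair, and dashed lines a 2-fold difference; Mt1 and Mt2 lie at 2.41 and 3.46 in tumour PBS muscle and at -1.32 and -2.06 for MDC against PBS in tumour muscle, while the Mtf1 means and single-library changes lie near 0 in every comparison.

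In tumour kidney both metallothioneins and the importer Slc39a14 were higher than in wild type kidney. Mt1 was at 118 CPM in tumour kidney, against 55.3 CPM in wild type kidney, a ratio of 2.14 (2.05 to 2.24). Mt2 was at 43.9 CPM in tumour kidney, against 20.3 CPM in wild type kidney, a ratio of 2.16 (2.02 to 2.32). Slc39a14 was at 76.3 CPM in tumour kidney, against 33.4 CPM in wild type kidney, a ratio of 2.28 (2.16 to 2.41). All 3 genes were near 2-fold higher, whereas Mtf1, at 24.6 CPM in tumour and 23.0 CPM in wild type kidney, and Slc30a1, at 87.7 CPM in tumour and 84.7 CPM in wild type kidney, had ratios of 1.07 (0.992 to 1.15) and 1.03 (0.994 to 1.08). By size, 3 of the 5 genes were higher and 0 lower, where 5.68% of all genes were higher and 4.17% lower, and none of the 3 would pass at 3-fold. Kidney had 1 library per group and no test of its own. Fitted by edgeR with the spread of the muscle pair, an analysis added after the data were seen, the kidney difference of each of the 5 genes had an adjusted p of 1. The fit called 0 of 16711 genes in kidney, and 164 had a p under 0.05 before adjustment. In the same fit the tumour change in kidney minus that in muscle was -1.90 for Mt2 (SE 1.26), -1.17 for Mt1 (SE 1.06) and 1.37 for Slc39a14 (SE 1.10) on the log2 scale. Each had an adjusted p of 0.999966 in edgeR's test, so a difference between the tissues was not shown.

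Marker genes of other cells also differed between these libraries, and their part in the values above was not tested. The 8 neutrophil markers summed to 42.5 CPM in tumour muscle with MDC and to 358 CPM with PBS, against 14.4 and 1.09 CPM in wild type PBS libraries 1 and 2. All 8 passed by size as higher in tumour PBS muscle, and 5 of the 8 were at 0 in wild type PBS library 2. Mt2 was at 5.70 and 30.2 CPM in wild type PBS libraries 1 and 2, and its link to the marker sums was not tested. The 8 macrophage markers summed to 143 CPM in tumour muscle with MDC and 277 CPM with PBS, against 84.0 and 542 CPM in wild type PBS libraries 1 and 2. For MDC against PBS in tumour muscle, 8 of 8 neutrophil, 3 of 8 macrophage and 2 of 6 endothelial markers were lower by size. In the same comparison 5 of 6 adipocyte markers were lower, with sums of 423 CPM with MDC and 722 CPM with PBS, against 278 and 823 CPM in wild type PBS libraries 1 and 2. All 5 slow fibre markers were higher with MDC, with sums of 959 CPM with MDC and 127 CPM with PBS, against 6.06 and 314 CPM in the wild type PBS libraries. Of 5 erythroid markers 3 were higher in tumour PBS muscle, where the 5 summed to 2802 CPM, against 711 and 701 CPM in the wild type PBS libraries. The erythroid sum was highest with tumour and MDC, at 5526 CPM. It was 1873 CPM in wild type DKK1 muscle and 1347 CPM under the knockout label with DKK1. In tumour kidney 3 of the 5 were higher, with a sum of 1702 CPM, against 395 CPM in wild type kidney. In kidney the neutrophil sum was 15.3 CPM in the tumour library and 0.858 CPM in the wild type library, and the adipocyte sum of 6 markers was 590 and 79.8 CPM in the same libraries.

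The share of Mt2 among Mt1 and Mt2 counts differed between muscle libraries and hardly between kidney libraries. Mt2 made up 27.0% of the sum in tumour kidney (exact binomial 95% interval 26.1 to 27.9) and 26.8% in wild type kidney (25.5 to 28.2). In muscle it was 32.9% with tumour and MDC (31.0 to 34.9), 45.0% with tumour and PBS (44.0 to 46.0), 26.2% under the knockout label with DKK1 (23.2 to 29.4) and 41.05% under that label with PBS (37.2 to 44.9). It was 33.8% in wild type DKK1 muscle (31.3 to 36.4), and 21.2% (17.8 to 24.9) and 36.5% (34.2 to 38.8) in wild type PBS libraries 1 and 2. The tumour PBS library had the highest share, above both wild type libraries beyond counting error. The wild type pair spans 21.2% to 36.5%, and the library labelled knockout with PBS lies above that span as well. Per length, the level of Mt1 exceeded that of Mt2 in all 9 libraries, by 1.25-fold in tumour PBS muscle and 3.81-fold in wild type PBS library 1 at the extremes.

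**Figure D3:**
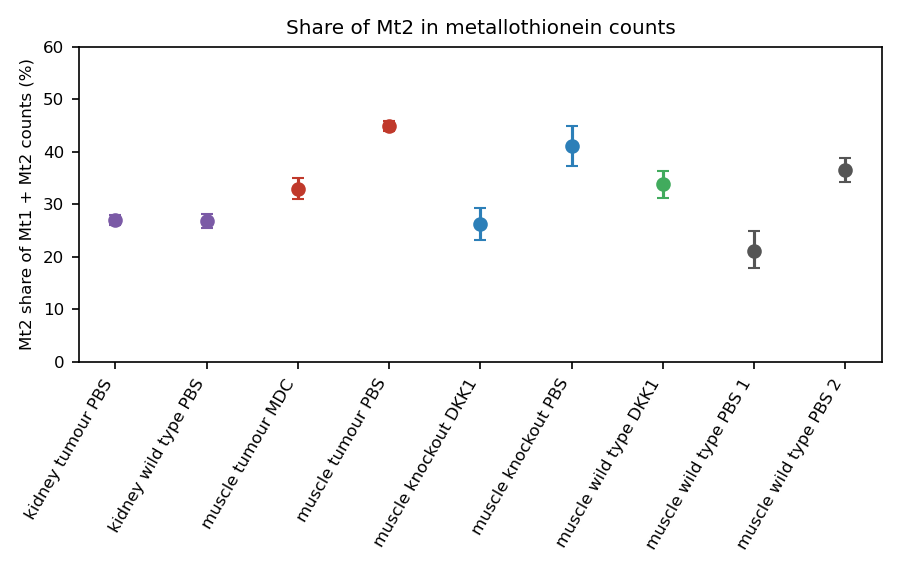
Share of Mt2 in the summed Mt1 and Mt2 counts of each library, in percent, with exact binomial 95% intervals that cover counting error only. The tumour PBS muscle library has the highest share, 45.0%, and the kidney libraries hardly differ, at 27.0% and 26.8%.

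DKK1 in wild type muscle left the metallothioneins within the range of the wild type PBS pair. Mt1 was at 25.1 CPM with DKK1, against 21.2 and 52.6 CPM with PBS, and Mt2 was at 12.8 CPM with DKK1, against 5.70 and 30.2 CPM with PBS. Slc39a14 was at 36.5 CPM with DKK1, against 9.84 and 27.9 CPM with PBS, and Slc30a1 was at 27.0 CPM with DKK1, against 17.5 and 24.4 CPM with PBS. Both transporters were thus above the wild type pair, Slc39a14 by 3.71-fold and 1.31-fold, and Mtf1, at 25.8 CPM with DKK1 against 22.9 and 24.0 CPM with PBS, was above it by 1.13-fold and 1.07-fold. None of the 5 genes passed by size, where 2.46% of all genes were higher and 0.253% lower. Within set C, against library 2 alone, Mt1 and Mt2 had ratios of 0.476 and 0.423 and passed as lower, while against library 1 alone Mt2 and Slc39a14 passed as higher. The edgeR adjusted p was 1 for all 5. edgeR called 0 and DESeq2 4 of 15269 genes, and 198 had an edgeR p under 0.05 before adjustment.

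The libraries labelled beta-arrestin knockout had the lowest Mt1 of all libraries. Mt1 was at 17.1 CPM under the label with PBS, against 21.2 and 52.6 CPM in wild type PBS muscle, ratios of 0.807 and 0.325. Mt2 was at 11.9 CPM under the label with PBS, within the wild type PBS values of 5.70 and 30.2 CPM. Slc39a14 at 18.4 CPM and Slc30a1 at 17.7 CPM under the label with PBS also lay within their wild type PBS pairs, of 9.84 and 27.9 CPM and of 17.5 and 24.4 CPM. Mtf1 was at 27.3 CPM under the label with PBS, above its wild type PBS values of 22.9 and 24.0 CPM by 1.19-fold and 1.13-fold. None passed by size, where 0.824% of all genes were higher and 0.667% lower; within set C alone, Mt1 and Mt2 passed as lower, at ratios of 0.325 and 0.394, and without library 2 Mt2 passed as higher. The edgeR test gave an adjusted p of 1 for all 5 and called 0 of 15269 genes, DESeq2 called 20, and 172 had an edgeR p under 0.05 before adjustment.

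Under the knockout label, Mt2 was lower with DKK1, short of 2-fold, and the other genes had ratios of 1.06 to 1.21. Mt2 was at 6.99 CPM with DKK1, against 11.9 CPM with PBS, a ratio of 0.587 (0.487 to 0.705), while Mt1 was at 19.7 CPM with DKK1, against 17.1 CPM with PBS, a ratio of 1.15 (1.01 to 1.31). Mtf1, Slc39a14 and Slc30a1 had ratios of 1.13 (1.02 to 1.25), 1.06 (0.932 to 1.20) and 1.21 (1.07 to 1.38). None passed by size, where 2.28% of all genes were higher and 0.71% lower. Compared with wild type DKK1 muscle, the library labelled knockout with DKK1 had Mt2 at 6.99 CPM, against 12.8 CPM, a ratio of 0.546 (0.461 to 0.643), and Slc39a14 at 19.4 CPM, against 36.5 CPM, a ratio of 0.532 (0.482 to 0.587). Mt1 and Slc30a1 had ratios of 0.785 and 0.796 in that comparison and Mtf1 of 1.19, and none of the 5 passed by size, where 2.67% of all genes were higher and 10.2% lower. In the same comparison 6 of 6 adipocyte markers were lower by size, with sums of 110 CPM under the label and 680 CPM in wild type muscle, and 5 of 6 endothelial markers were lower, with sums of 272 CPM under the label and 791 CPM in wild type muscle. All 5 slow fibre markers were higher, with sums of 3876 CPM under the label and 334 CPM in wild type muscle, and the part of these markers in the values was not tested. The difference between the DKK1 changes under the knockout label and in wild type muscle was 0.76 for Mt1 and -0.87 for Slc39a14 on the log2 scale. With standard errors of 1.03 and 1.06, neither was called by edgeR, whose adjusted p was 0.999975 for all 5 genes. For DKK1 against PBS under the label, for the label under DKK1 and for the difference of the DKK1 changes, edgeR called 0 of 15269 genes and DESeq2 0, 14 and 3, and 43, 213 and 39 had an edgeR p under 0.05 before adjustment.

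Over the 7 muscle libraries the 5 genes spanned very different ranges. The highest over the lowest level was 25.5 for Mt2, 10.4 for Mt1, 3.71 for Slc39a14, 2.39 for Slc30a1 and 1.35 for Mtf1, against a median of 2.08 over 11928 genes. Mt2 thus varied more than 97.9% of those genes and Mtf1 more than 7.04%. The Mt1 levels ran, from high to low, tumour PBS, tumour MDC, wild type PBS library 2, wild type DKK1, wild type PBS library 1, knockout label DKK1 and knockout label PBS. The Mt2 order was the same in its first 4 places, with the PBS and DKK1 libraries labelled knockout next and wild type PBS library 1 last. In both orders the wild type DKK1 library lies between the wild type libraries, so neighbours below the MDC library do not differ beyond the spread of that pair, and the MDC library exceeds the higher of the pair by 1.35-fold for Mt1 and 1.15-fold for Mt2. The Slc39a14 levels put wild type DKK1 first and wild type PBS library 2 second, and the other 4 treated or labelled libraries lie between 15.6 and 19.4 CPM, within the wild type pair.

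By tissue, Slc30a1 was the 1 gene of the 5 that edgeR called between wild type kidney and wild type muscle, which does not show equal levels of the others. It was at 84.7 CPM in wild type kidney, against 20.9 ± 4.92 CPM in wild type PBS muscle (SD, n = 2). The edgeR log2 change was 2.02 (SE 0.592), with an adjusted p of 0.0360, while limma-voom gave an adjusted p of 0.0812. It was 1 of 5 called, as higher, where edgeR called 9.89% of 16711 genes as higher and 5.84% as lower, 15.7% in all. By size it was again the 1 of 5 that passed, where 25% of genes with enough counts were higher in kidney and 14.2% lower. Mt1 was at 55.3 CPM in wild type kidney, against 36.9 ± 22.2 CPM in wild type muscle, and Mt2 at 20.3 CPM, against 18.0 ± 17.4 CPM. Slc39a14 was at 33.4 CPM in wild type kidney, against 18.9 ± 12.8 CPM in wild type muscle, and Mtf1 at 23.0 CPM, against 23.5 ± 0.833 CPM. The adjusted p of these 4 genes in edgeR's test lay between 0.516 and 0.990, and without library 2 of the wild type muscle pair 4 of the 5 genes were 2-fold or more higher in kidney. The lone kidney library is assumed in this test to vary like the muscle pair, and tissue and set letter cannot be told apart.

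Among 29 zinc-handling genes ranked by TMM-scaled RPKM, a level per length, Mt1 was first in 8 of 9 libraries. In the muscle library labelled knockout with PBS, Mt1 at 31.6 RPKM was second to Slc30a9 at 33.4 RPKM. The Mt1 level was 328 RPKM and the Mt2 level 262 RPKM in tumour PBS muscle, against Mt1 levels of 39.1 and 97.1 RPKM and Mt2 levels of 10.3 and 54.4 RPKM in wild type PBS libraries 1 and 2. Mtf1 had a level of 2.997 to 4.04 RPKM in the 9 libraries. Mt3, a metallothionein known best from brain, had 4 to 60 counts per library, under the 100 counts that the rule of size asks for.

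Among the other exporters and importers of zinc, the tumour comparisons showed no member past the rule of size. Of the 9 other ZnT genes, 6 had enough counts in tumour PBS against wild type PBS muscle, 0 were higher or lower, and the median log2 change was -0.12, where that of all genes was 0.06. Of the 13 other ZIP genes, 8 had enough counts, 0 passed, and the median log2 change was 0.06. In tumour kidney, 6 other ZnT genes and 10 other ZIP genes had enough counts and 0 passed, with medians of -0.29 and 0.11, where that of all genes was 0.00. For MDC against PBS in tumour muscle, 0 of the 6 ZnT and 0 of the 8 ZIP genes with enough counts passed. Among all genes, 1.38% were higher and 0.419% lower in tumour PBS muscle, 5.68% and 4.17% in tumour kidney, and 1.15% and 3.52% for MDC against PBS. A count of 0 in lists this short therefore does not set the families apart from all genes. In these comparisons Slc39a14 passed in tumour kidney alone and Slc30a1 for MDC against PBS alone, and their difference from the families was not tested. Slc39a4, with 85 counts in tumour kidney and so too few for the rule, was at 1.43 CPM there, against 0.554 CPM in wild type kidney. In wild type DKK1 muscle, 1 other ZIP gene of 8 passed: Slc39a10, an importer at the plasma membrane, was at 21.05 CPM with DKK1, against 8.13 and 8.52 CPM with PBS. Of all genes, 2.46% were higher in that comparison.

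By level per length, Slc39a14 made up 8.09% of the summed RPKM of its 14-gene ZIP family in tumour kidney and 3.64% in wild type kidney. In muscle its share was 7.09% in the wild type DKK1 library, 3.64% to 4.28% in the tumour libraries and those labelled knockout, and 2.48% and 5.53% in wild type PBS libraries 1 and 2. Slc30a1 made up 14.96% of the summed RPKM of its 10-gene ZnT family in tumour kidney and 11.2% in wild type kidney. In muscle its share was 3.55% with tumour and MDC and 8.90% with tumour and PBS, against 5.03% and 8.08% in wild type PBS libraries 1 and 2. Slc30a9 led the ZnT family in every library, with 22.7 to 56.9 RPKM. Between wild type kidney and wild type muscle, edgeR called 4 of the 12 other ZIP genes tested and 1 of the 6 other ZnT genes tested, where it called 15.7% of all genes. Slc39a5 was at 43.4 CPM in wild type kidney, against 0.502 ± 0.576 CPM in wild type muscle, with an adjusted p of 0.00103 in edgeR's test. Slc39a8, whose product ZIP8 is the closest relative of ZIP14, was at 59.0 CPM in wild type kidney, against 1.36 ± 0.511 CPM in wild type muscle, with an adjusted p of 0.000328 in edgeR's test.

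**Figure D4:**
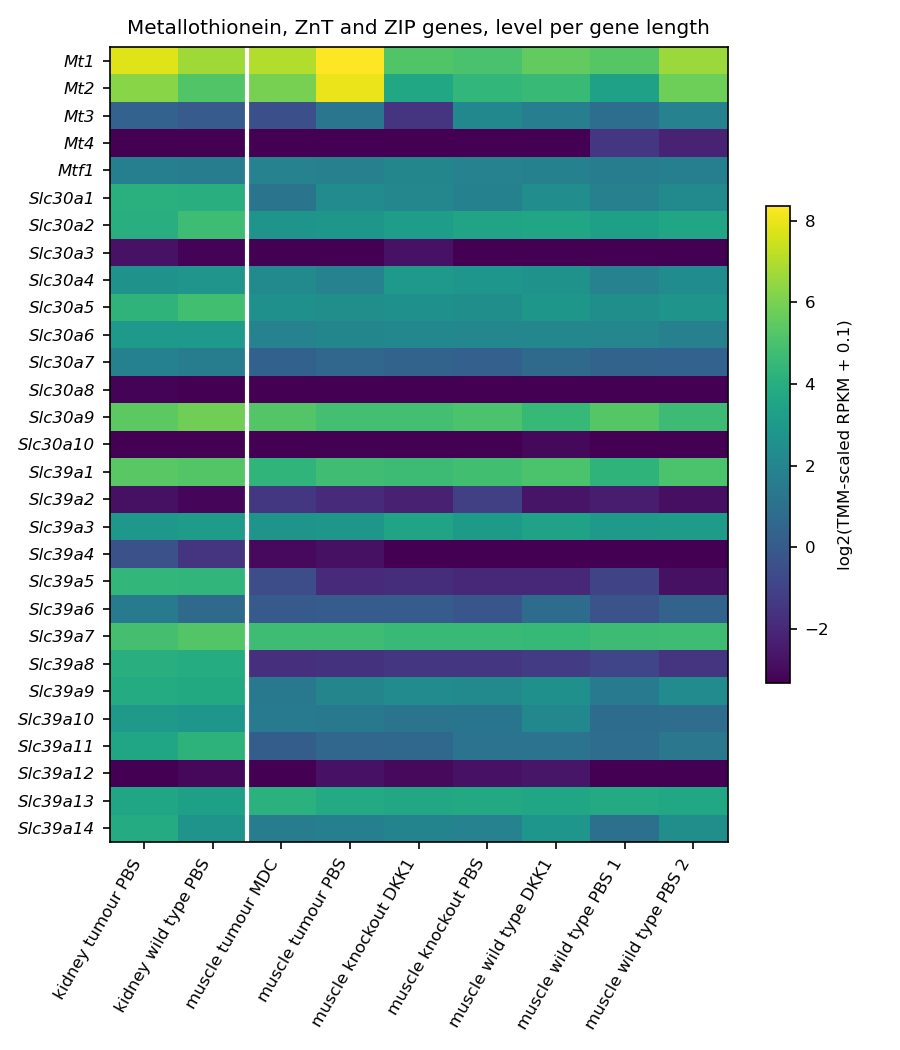
Level per gene length of the 29 zinc-handling genes (down) in the 9 libraries (across), as log2 of TMM-scaled RPKM with 0.1 added, lighter colours standing for higher levels and the white line dividing kidney from muscle. Mt1 and Mt2 are brightest in tumour PBS muscle, at 328 and 262 RPKM, and Slc39a5 and Slc39a8 are brighter in kidney than in muscle.

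Lists of genes from pathways known to raise metallothioneins were counted in both tissues. The lists were chosen with earlier results of these data known, so their counts are a description and not independent support. Of 10 genes responsive to interleukin-6 and STAT3, 6 were higher by size in tumour PBS muscle and 7 in tumour kidney, with median log2 changes of 1.20 and 1.45, where 1.38% of all genes were higher in tumour PBS muscle and 5.68% in tumour kidney. Lcn2, a siderophore-binding protein of the acute phase, was at 22.4 CPM in tumour PBS muscle, against 0.353 and 3.55 CPM in wild type PBS muscle, and at 58.1 CPM in tumour kidney, against 2.07 CPM in wild type kidney. The neutrophil marker sums were higher in the same tumour libraries, at 358 CPM in muscle and 15.3 CPM in kidney. Their part in the Lcn2 level was not tested. Of 10 glucocorticoid-responsive genes, 0 passed in tumour PBS muscle and 5 were higher in tumour kidney, with median log2 changes of 0.21 and 1.13, beside the same 5.68% of all genes in kidney. Zbtb16, a zinc-finger factor induced by glucocorticoids, was at 19.0 CPM in tumour kidney, against 0.804 CPM in wild type kidney. In muscle it was at 19.1 CPM in the tumour PBS library, against 3.33 and 67.5 CPM in wild type PBS libraries 1 and 2. Library 2 over library 1 of that pair was 20.3 for Zbtb16, 11.5 for Fkbp5, 5.61 for Ddit4, 2.72 for Errfi1 and 2.04 for Klf9. The same ratio was 1.33 for Per1, 1.20 for Tsc22d3, 1.09 for Sgk1, 0.981 for Klf15 and 0.850 for Pdk4. Of 10 NRF2-responsive genes, 0 passed in tumour PBS muscle, and 1, Me1, was lower in tumour kidney, at 379 CPM against 839 CPM in wild type kidney, where 4.17% of all genes were lower. The part of these pathways in the metallothionein levels was not tested.

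With MDC in tumour muscle, 1 of the 10 interleukin-6 and STAT3 genes was lower by size, Lcn2, at 3.52 CPM with MDC, against 22.4 CPM with PBS. Socs3, the feedback inhibitor of that pathway, was at 15.03 CPM with MDC, against 27.7 CPM with PBS, and Cebpd at 74.7 CPM with MDC, against 137 CPM with PBS, both short of 2-fold. Of the glucocorticoid-responsive genes 1 was lower with MDC, Pdk4, at 224 CPM with MDC, against 712 CPM with PBS. Each list had thus 1 gene of 10 lower, where 3.52% of all genes were lower. The median log2 change was -0.58 for the interleukin-6 and STAT3 list and -0.23 for the glucocorticoid list, where that of all genes was 0.00. The neutrophil sum was also lower with MDC, at 42.5 CPM against 358 CPM with PBS, and its part in the Lcn2 level was not tested. Of 12 copper and iron genes, 0 passed in tumour PBS muscle, in tumour kidney and for MDC against PBS. Outside the tumour comparisons, Tfrc, the transferrin receptor, was at 315 CPM under the knockout label with PBS, against 119 and 114 CPM in wild type PBS muscle, where 0.824% of all genes were higher by size. With DKK1, Tfrc was at 266 CPM under the label, against 124 CPM in wild type muscle, where 2.67% of all genes were higher by size. ZIP14 also carries iron. Slc39a14 under the label was at 18.4 CPM with PBS, within its wild type pair, and at 19.4 CPM with DKK1, against 36.5 CPM in wild type muscle. A link between Tfrc and Slc39a14 was not tested.

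The genes whose muscle profiles were most like those of the metallothioneins included receptors of myeloid growth factors and acute phase genes. Likeness is the root mean square difference of centred log2 CPM over the 7 muscle libraries, among 11928 genes, and is a description without a test. For Mt2, with a median of 1.53 over all genes, the nearest were Lcn2 at 0.465, Mt1 at 0.506, Wfdc17 at 0.557, Csf3r, the receptor for the neutrophil growth factor G-CSF, at 0.610, and Lrg1, an acute phase glycoprotein, at 0.681. For Mt1 they were Csf2rb, the shared subunit of the receptors for GM-CSF and interleukin-3, at 0.427, Itgal, a leukocyte integrin, at 0.440, Meox1 at 0.446, Lrg1 at 0.470 and Tmem176a at 0.479, with Mt2 in place 9. All these profiles share the 1 library, tumour PBS muscle, in which they are highest. For Slc39a14 the nearest were Rap2a at 0.0823, Atp8b2 at 0.0990, Ptpn9 at 0.102, Ptger1 at 0.118 and Adnp2 at 0.126, where the median over all genes was 0.653. Like Slc39a14, these 5 genes were highest in the wild type DKK1 library and lowest in wild type PBS library 1. None of the other members was among the 5 genes nearest to Slc39a14. Slc30a1 at 0.465 and Mtf1 at 0.549 lay under that median, and Mt1 at 1.30 and Mt2 at 1.54 above it. The measure also grows with the range of a gene, which was small for Mtf1 and large for Mt1 and Mt2. These places therefore do not show likeness or unlikeness of shape.

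**Figure D5:**
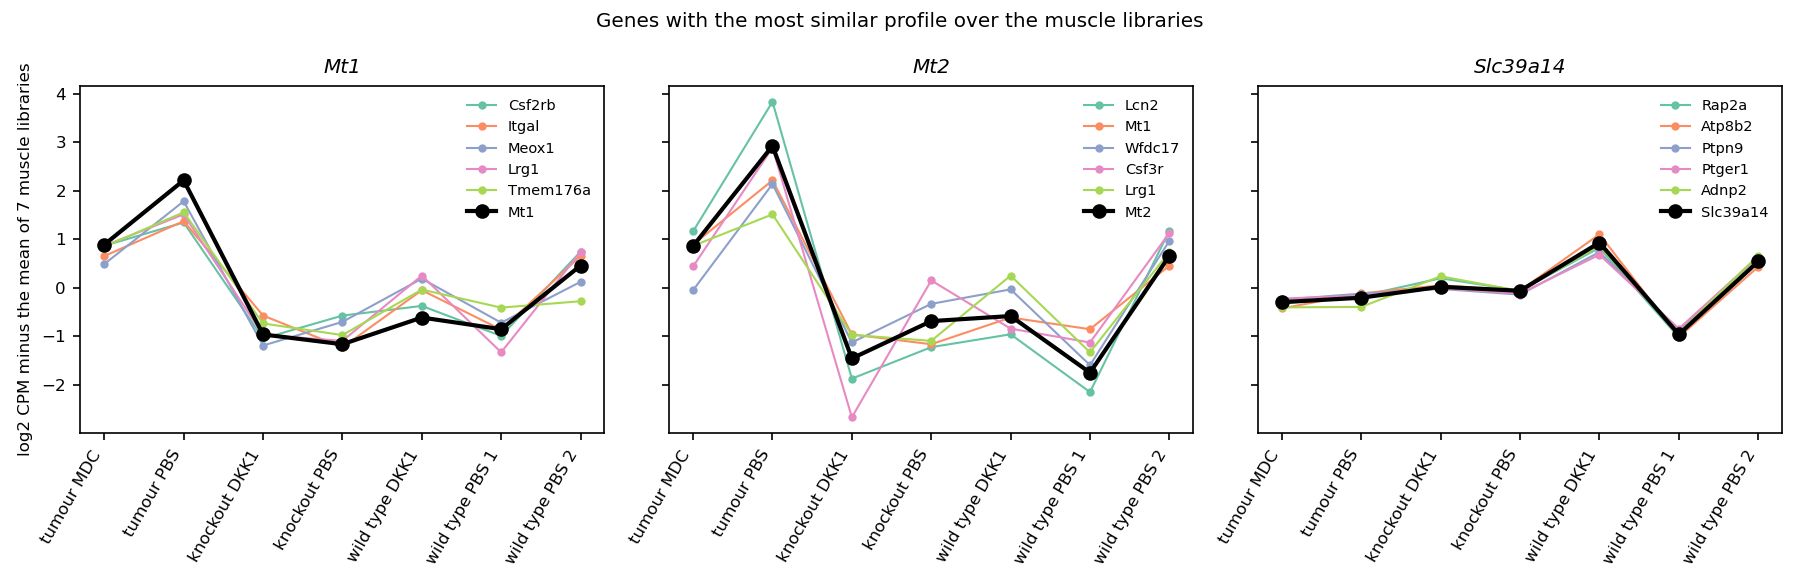
Level profiles, in log2 CPM with no prior count, centred on each gene's mean, of Mt1, Mt2 and Slc39a14 and of the 5 genes nearest to each over the 7 muscle libraries, with lines that only join the points of 1 gene. The metallothionein profiles peak in tumour PBS muscle, and the Slc39a14 profiles peak in wild type DKK1 muscle and are lowest in wild type PBS library 1.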

How the data were processed

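Per library, the authors deposited raw counts per gene, not normalised, beside RPKM computed by the authors from them; RPKM served only to check the order of levels. Per the submitters' processing notes, reads were aligned with HISAT2 2.1.0 to mm10, with the counting program, annotation and strand setting not given in the sources used here. Groups follow the labels, and set letters the library names.

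Counts were scaled by TMM over all 9 libraries (edgeR 4.0.16, limma 3.58.1, DESeq2 1.42.0, R 4.3.3). edgeR's quasi-likelihood test, after a filter at a minimum count of 10, was fitted to the 7 muscle libraries (15269 genes) or to all 9 (16711 genes), with Benjamini-Hochberg adjustment and a threshold of 0.05. Only the wild type pair gives residual degrees of freedom, 1 in each fit, and the spread of that pair stands for that of every single library. Kidney had no planned test. Intervals are exact, at 95%, and cover counting error only. Alternatives were other scalings, no filter, DESeq2, limma-voom, other folds and each wild type library left out. edgeR's test, the rule of size and the ratio intervals were also run on simulated counts. Those counts held no differences between sets or in cell types, and no result here rests on them.

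Named genes are the 5 genes, up to 3 per list and direction past the rule of size, and the 5 nearest profiles. Socs3, Cebpd, Zbtb16, Slc30a9 and Mt3 were named for their role beside a result. Slc39a4 and the other glucocorticoid-responsive genes were named to show the limits of a result. The genes and lists were chosen with earlier results of these data known.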

Additional observations from a re-analysis of the deposited data

How the results depend on the processing

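No paired analysis was possible because replicate numbers are given to wild type PBS muscle alone, and a term for the set letter would take the 1 residual degree of freedom of the fit. Of 391 values of single genes under alternatives, 380 were counted as unchanged, 9 changed sign, 1 gained a call and 1 lost it, and the causes were not tested. For other scalings and tests, unchanged meant the same direction and side of the threshold, and in kidney a move within counting error. With a wild type library left out it meant a move within the SD of the pair, which 2 libraries always meet. Changes of sign there were counted only for genes past the rule of size. Against libraries 1 and 2 alone, Slc39a14 in tumour PBS muscle was at 0.75 and -0.75, and Mt2 in wild type DKK1 muscle at 1.16 and -1.24. With no filter on low counts, edgeR called 28 genes in tumour PBS muscle, 36 for MDC and 18 for DKK1 in wild type muscle, 39 under the knockout label with PBS (all against wild type PBS), 11 for DKK1 under the label, 24 for the label under DKK1 and 16 for the interaction. DESeq2 called 12, 11, 4, 20, 0, 14 and 3 in the same order. Total counts alone, which move the median log2 change of all genes from 0.06 to 0.23 in tumour PBS muscle, from 0.01 to 0.48 for wild type DKK1 and from 0.16 to 0.79 between tissues, gave 5 calls in tumour PBS muscle and 1 under the knockout label with PBS.

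The number of the 5 genes past the rule of size was 1 at 3-fold for MDC against PBS and 0 at 3-fold in tumour kidney. At 1.5-fold it was 1 for MDC against wild type PBS, 1 for DKK1 under the knockout label and 2 for the label under DKK1, which was also 2 with total counts alone. With either wild type library left out it ranged from 1 to 2 for MDC, was 2 for DKK1, and ranged from 1 to 2 for the knockout label with PBS and from 1 to 4 between tissues. The count stayed at 2 in tumour PBS muscle under each alternative run.

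Slc39a14 in tumour PBS muscle, at 0.00, changed sign to -0.0435 with DESeq2 size factors and -0.0292 with TMM within each tissue (chosen after seeing the data). Its fitted log2 change under the knockout label with PBS, -0.0410 in edgeR, was 0.13 with limma-voom. The fitted log2 change of Mt2 in tumour PBS muscle was 3.02 with no filter, the 1 alternative run that called it, and that of Slc30a1 between tissues was not called with limma-voom, at 2.03. With total counts alone Mtf1 was -0.16 for MDC against PBS, -0.0155 for the label under DKK1, 0.605 between tissues and -0.31 in the interaction, and in wild type DKK1 muscle Mt1 was 0.0594 and Mt2 0.43. The fit's spread rests on 1 pair of libraries from different sets, which limits what any test here can call.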
